A study of Mus musculus with 11 samples.

Results

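The FGF, PDGF and HGF signals of the alveolar wall, 10 of the 31053 genes in the deposited matrices, were followed across the cell lineages and genotypes of aged mouse lung. They were taken by symbol: the ligands Fgf7, Fgf10, Pdgfa, Pdgfb and Hgf, and the receptors Fgfr1, Fgfr2, Fgfr4, Pdgfra and Pdgfrb. The lungs were dissociated with dispase and collagenase, red blood cells were lysed, and the whole suspension was sequenced cell by cell from transcript 3′ ends in droplets (10x Genomics), giving 11 libraries. WT (wild type, +/+) had 1 library. The 3 libraries named p21Het came from p21 heterozygotes (+/-), where p21 is the cell cycle inhibitor gene Cdkn1a. The 5 libraries named p21mTert came from p21 mTert mice (+/mTert), which carry mTert, the gene of the catalytic subunit of mouse telomerase (Tert). The 2 libraries named p21mTertCD came from p21 mTertCD mice (+/mTertCD), an allele that the labels do not spell out. The age labels read 18 months for 9 libraries, 19 for p21Het_1 and 20 for p21mTert_1, although every title gives 18. WT_1, p21Het_1 and p21mTert_1 were deposited earlier than the other 8 libraries. The labels do not say that each library came from its own animal, so every p-value measures only the spread between these libraries. The series title concerns capillary rarefaction and emphysema, and the comparison of p21mTert with p21Het and p21mTertCD asks whether the mTert allele changes these signals.

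Fibroblast growth factors 7 and 10 are secreted by mesenchymal cells and act on the epithelial splice form of Fgfr2, a receptor tyrosine kinase needed for lung branching and for maintaining alveolar type 2 (AT2) cells, which make surfactant. Platelet-derived growth factor A, from epithelial cells, signals through Pdgfra on fibroblasts during alveolar septation. Platelet-derived growth factor B, from endothelial cells, recruits pericytes and smooth muscle cells through Pdgfrb. Hepatocyte growth factor, encoded by Hgf, acts through the receptor Met on epithelial and endothelial cells.

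Fgf7, Fgf10, Pdgfra and Fgfr4 reached their highest level in alveolar fibroblasts among the lineages measured in several libraries, so the 250 bases before the RefSeq start of each (GRCm38.p6, plus strand) are shown together to compare the base composition of their promoters. Fgf7 lies at chr2:126034408-126034657, Fgf10 at chr13:118714449-118714698, Pdgfra at chr5:75152001-75152250 and Fgfr4 at chr13:55152568-55152817. Capitals mark matches to the GC box GGGCGG on either strand.
Fgf7: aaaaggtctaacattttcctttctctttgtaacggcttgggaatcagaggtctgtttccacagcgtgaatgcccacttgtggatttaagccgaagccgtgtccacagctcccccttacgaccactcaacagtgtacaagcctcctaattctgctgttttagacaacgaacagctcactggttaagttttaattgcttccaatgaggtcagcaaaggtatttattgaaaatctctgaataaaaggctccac
Fgf10: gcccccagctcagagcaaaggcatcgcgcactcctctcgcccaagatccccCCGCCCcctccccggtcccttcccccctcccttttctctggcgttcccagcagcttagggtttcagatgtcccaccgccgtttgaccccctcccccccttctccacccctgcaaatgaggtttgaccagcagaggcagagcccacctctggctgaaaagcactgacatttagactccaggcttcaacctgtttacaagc
Pdgfra: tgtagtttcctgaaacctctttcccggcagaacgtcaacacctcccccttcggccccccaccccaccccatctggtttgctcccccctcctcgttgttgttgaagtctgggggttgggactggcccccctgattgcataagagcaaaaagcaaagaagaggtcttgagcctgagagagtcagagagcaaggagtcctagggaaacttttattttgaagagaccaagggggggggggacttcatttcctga
Fgfr4: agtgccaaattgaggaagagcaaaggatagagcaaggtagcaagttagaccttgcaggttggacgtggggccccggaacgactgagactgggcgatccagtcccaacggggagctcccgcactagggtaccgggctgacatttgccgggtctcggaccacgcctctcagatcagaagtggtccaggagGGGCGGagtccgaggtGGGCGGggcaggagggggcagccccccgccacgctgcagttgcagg
Their GC content was 43.6% for Fgf7, 61.2% for Fgf10, 54.4% for Pdgfra and 64% for Fgfr4. The GC box matched once in Fgf10, at 2 places in Fgfr4 and nowhere in the other two, while 32.7% of all 32851 RefSeq promoter windows of this length held a match. Neither the E-box CAGCTG, found in 4271 windows, nor the TATA box TATAAA, found in 4063 (12.4%), occurred in any of the 4 on either strand. These matches are descriptions of the letters and not binding sites. In another gene annotation Fgf10 starts upstream of its window, at chr13:118669791. There Fgfr4 starts inside its window, at chr13:55152640, ahead of its marked GC boxes.

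The files held 81983 barcodes, of which 69267 had 1000 to 30000 UMIs (unique molecular identifiers, each a counted RNA molecule) and at most 14% mitochondrial UMIs. After doublets were left out, 65030 cells remained, and 51851 of them (79.7%) were given 1 of 30 lineages by marker genes, none of which is among the 10 genes. Lineage names rest on marker RNA alone. Libraries held 42038434 to 85988955 UMIs, with a median per kept cell of 4024.5 to 6260. Mitochondrial RNA made up a median of 6.34% to 6.60% of UMIs in the 3 earlier libraries and of 2.83% to 4.31% in the 8 later ones. Any pair of libraries shared at most 20 barcodes. Whole-lung Tert was 1.98 to 3.13 counts per 1000000 UMIs (CPM) in p21mTert libraries, 0.507 to 0.859 CPM in p21Het, 1.14 CPM in WT_1 and 1.82 to 2.61 CPM in p21mTertCD. Cdkn1a ranged from 112.9 to 183.3 CPM over all 11 libraries. Below, a level is the gene's CPM in the summed cells of 1 lineage in 1 library, given as the mean over libraries with at least 20 such cells. Levels are compared within a gene only. Lineages are ranked only where at least 3 libraries held 20 such cells. This leaves out pericytes and ductal myofibroblasts, among others, whose pooled levels are given with Pdgfrb.

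**Figure D1:**
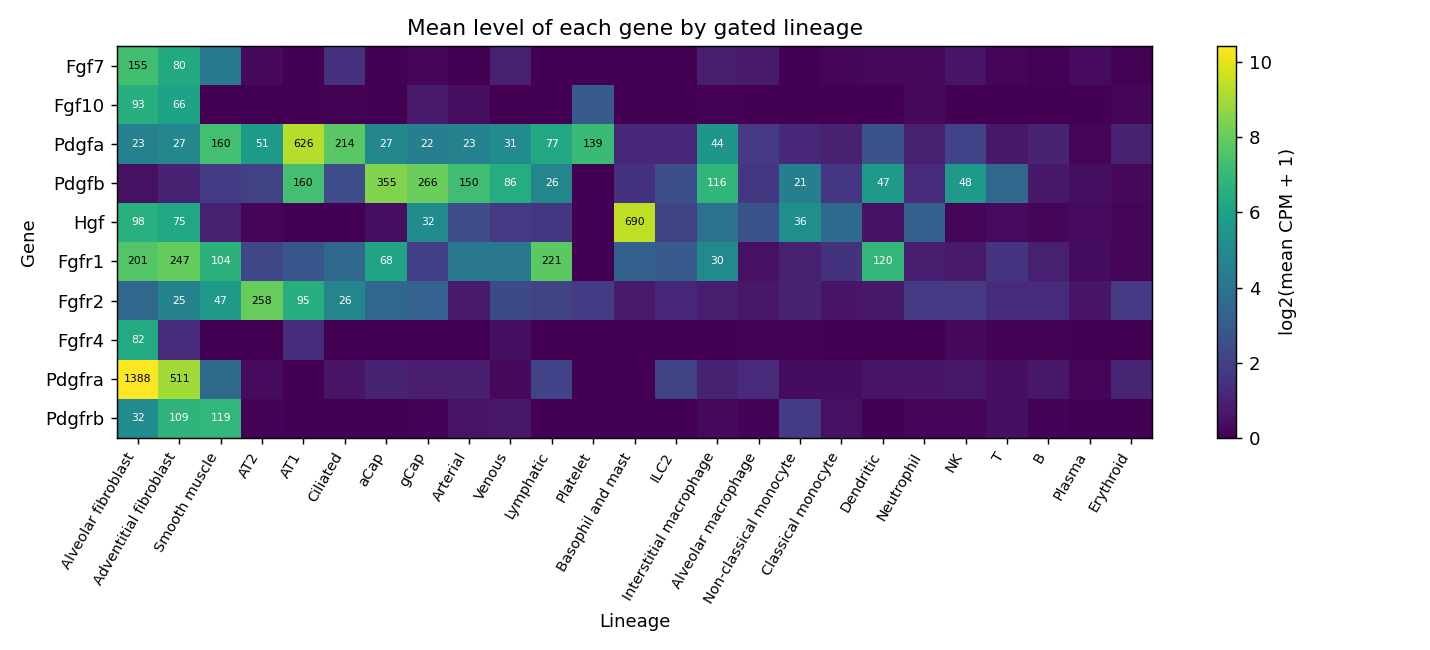
Mean level of each of the 10 genes (rows) in 25 gated lineages (columns); colour is log2(mean CPM + 1) over libraries with at least 20 cells of the lineage, and the mean CPM is printed where it is at least 20. Fgf7, Fgf10, Fgfr4, Pdgfra and Pdgfrb are brightest in the mesenchymal columns at the left, Fgfr2 is brightest in AT2, Pdgfa in AT1, Pdgfb in aCap and gCap, and Hgf in basophils and mast cells.

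Fgf7, the ligand also called keratinocyte growth factor, was a fibroblast transcript in these lungs. In alveolar fibroblasts it stood at 187.8 CPM in WT_1, at 192, 106.2 and 123.6 CPM in p21Het_1 to p21Het_3, at 192.7, 153.0, 112.5, 146.1 and 148.6 CPM in p21mTert_1 to p21mTert_5, and at 153.1 and 187.5 CPM in the p21mTertCD libraries. The groups overlapped, with libraries of every genotype within the same range. The 3 libraries of the earlier deposit, WT_1, p21Het_1 and p21mTert_1, were the highest 3, WT_1 only just. The mean was 155 CPM ± 32.0 (SD, n = 11) against 80.2 CPM ± 25.8 (n = 9) in adventitial fibroblasts, the fibroblasts around vessels and airways, and alveolar fibroblasts were higher in 9 of 9 libraries that held both. Smooth muscle followed at 17.5 CPM ± 6.89 (n = 4), and the mean of every other lineage with at least 3 libraries was at most 1.85 CPM. Alveolar fibroblasts, 884 of the 65030 cells, held 60.1% of all Fgf7 UMIs. When each cell was thinned to 2000 UMIs, a mean of 27.8% of alveolar fibroblasts still had an Fgf7 UMI (64.0% before thinning, 138 shallower cells left out), against 0.0139% of B cells, which serve as the background from free RNA. The median depth before thinning was 8444.5 UMIs in these fibroblasts and 4227 in B cells. Thinning likewise left out 21 adventitial fibroblasts, 78 AT1, 513 AT2, 150 ciliated, 110 aCap and 501 gCap cells, 5 basophils and mast cells, and 150 B cells.

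Fgf10, the branching morphogen of the lung, had the same leading pair of lineages. Alveolar fibroblasts gave 33.8 CPM in WT_1, 82.3, 94.0 and 152.1 CPM in p21Het, 70.4, 115.4, 88.1, 129.4 and 86.2 CPM in p21mTert, and 71.8 and 95.9 CPM in p21mTertCD. WT_1 was the lowest library, on 9 UMIs, and the 3 replicated groups overlapped. The mean of 92.7 CPM ± 31.6 (n = 11) lay above the 66.0 CPM ± 20.97 (n = 9) of adventitial fibroblasts in 8 of 9 libraries, and 62.3% of Fgf10 UMIs came from alveolar fibroblasts. The next lineage, platelets, had 6.98 CPM ± 6.67 (n = 3), on at most 1 UMI per library.

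Pdgfa, the ligand for Pdgfra, was highest in alveolar type 1 (AT1) cells, the flat cells of the gas exchange surface. The 6 libraries with at least 20 AT1 cells held 571.1 CPM in p21Het_2, 530.3, 740.5, 686.7 and 778.6 CPM in p21mTert_2 to p21mTert_5, and 449.8 CPM in p21mTertCD_2. All of these were far above the AT2 levels of the same libraries, with means of 626 CPM ± 129 and 50.4 CPM ± 6.66 (n = 6). Ciliated cells came next at 214 CPM ± 41.1 (n = 11), then smooth muscle at 160 CPM ± 38.5 (n = 4) and platelets at 139 CPM ± 34.3 (n = 3). Lymphatic endothelium at 77.2 CPM ± 44.3 (n = 8) and AT2 cells at 51.0 CPM ± 7.26 (n = 11) did not separate, the first being higher in 5 of 8 libraries. Because AT1 cells were few, 294 in all, they held 10.3% of Pdgfa UMIs, against 32.1% in ciliated and 24.7% in AT2 cells. After thinning, 70.3% of AT1, 33.4% of ciliated, 8.11% of AT2 and 0.233% of B cells had a Pdgfa UMI (93.2%, 86.8%, 47.2% and 0.507% before), from median depths of 7166, 14172.5, 19697.5 and 4227 UMIs.

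Pdgfb was highest in capillary endothelium. In aCap cells, the large aerocytes that line gas exchange capillaries, it was 500.1 CPM in WT_1, 455.3 and 291.2 CPM in p21Het_1 and p21Het_2, 469.7, 247.8, 285.5, 326.6 and 337.4 CPM in p21mTert, and 403.1 and 232.4 CPM in p21mTertCD. WT_1, p21Het_1 and p21mTert_1, the 3 libraries of the earlier deposit, were the highest 3. In gCap cells, the general capillary cells that can give rise to aerocytes, the mean was 266 CPM ± 69.0 (n = 11) against 355 CPM ± 96.1 (n = 10) in aCap cells, which were higher in 8 of 10 libraries. AT1 cells at 160 CPM ± 73.4 (n = 6) and arterial cells at 150.0 CPM ± 37.1 (n = 9) could not be ordered, with AT1 higher in 3 of 6 libraries, and venous cells held 86.3 CPM ± 21.98 (n = 10). Outside these, interstitial macrophages had 116 CPM ± 33.7 (n = 11) and natural killer cells 48.5 CPM ± 23.1 (n = 11). The gCap cells held 21.3% of Pdgfb UMIs, interstitial macrophages 15.5% and aCap cells 10.5%. After thinning, 47.0% of aCap, 37.9% of gCap, 24.1% of AT1 and 0.206% of B cells had a Pdgfb UMI (74.8%, 53.8%, 51.6% and 0.382% before), from median depths of 4766, 3575.5, 7166 and 4227 UMIs.

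Hgf was highest outside the alveolar wall's structural cells. Basophils and mast cells, granule-bearing immune cells, held 604.4 CPM in WT_1, 566.9 CPM in p21Het_1, and 654.9, 894.5 and 726.8 CPM in p21mTert_1, p21mTert_2 and p21mTert_4, a mean of 690 CPM ± 129 (n = 5). These 205 cells gave 20.1% of all Hgf UMIs. Alveolar fibroblasts followed with 98.0 CPM ± 43.0 (n = 11), lowest in p21mTert_1 at 40.8 CPM and highest in p21Het_3 at 175.8 CPM. Adventitial fibroblasts had 75.5 CPM ± 87.8 (n = 9), an SD above the mean. Non-classical monocytes at 36.0 CPM ± 7.05 and gCap cells at 31.5 CPM ± 8.98 (n = 11 each) were ordered that way in 7 of 11 libraries. Thinned shares with an Hgf UMI were 60.5% of basophils and mast cells, 16.0% of alveolar fibroblasts, 5.75% of gCap and 0.0181% of B cells (82.8%, 42.0%, 10.3% and 0.0589% before), with a median depth of 5324.5 UMIs in basophils and mast cells. No Hgf or Fgf7 UMI was found in AT1 cells.

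**Figure D2:**
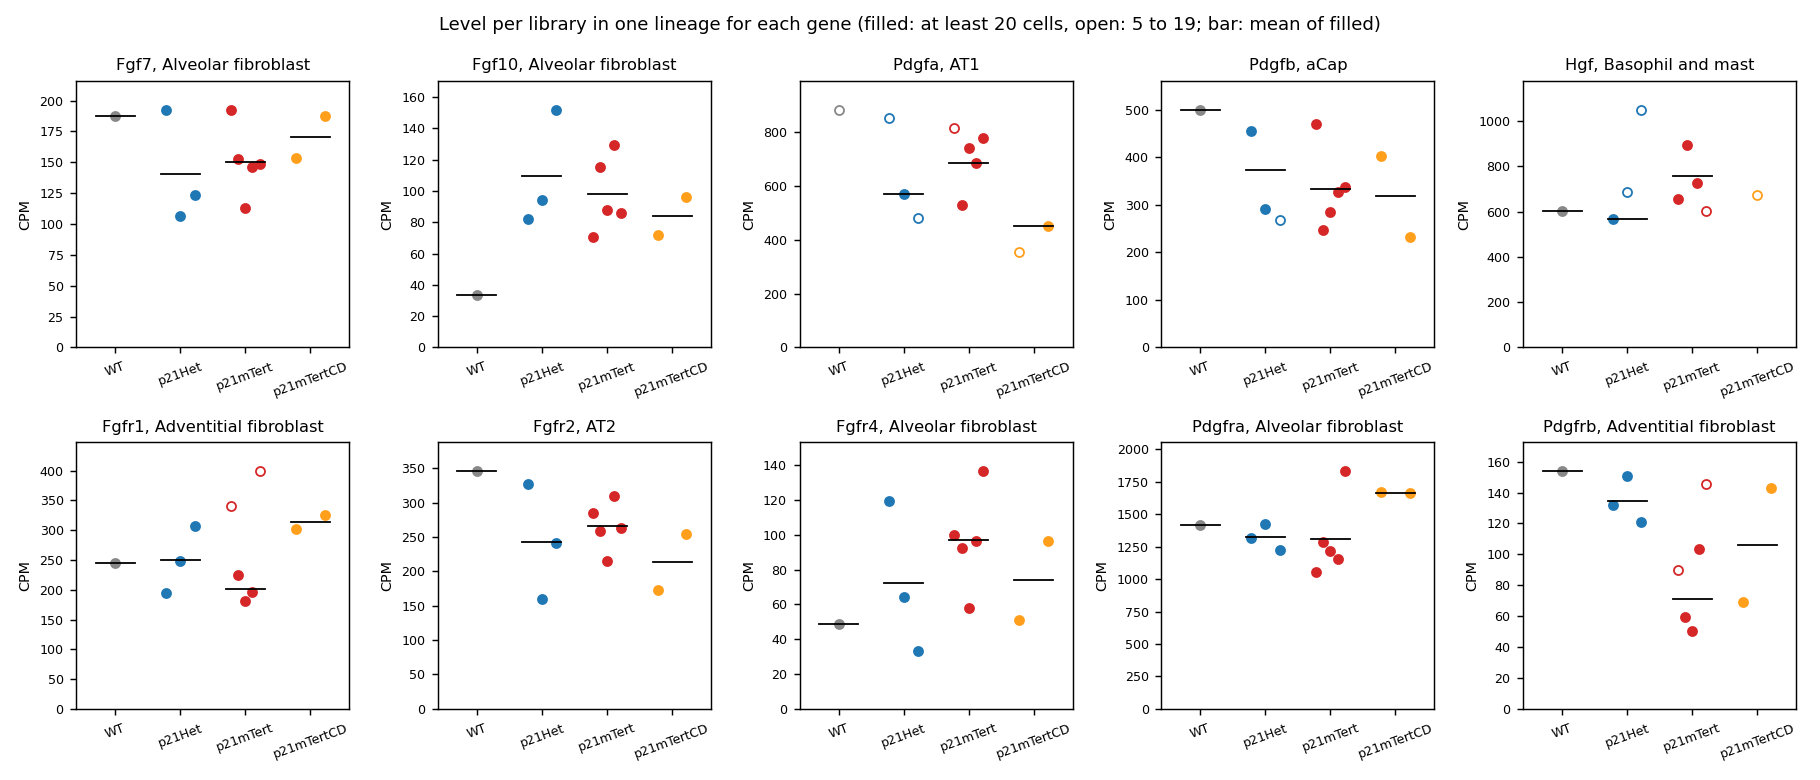
Level (CPM, linear axis from 0) of each gene in 1 lineage, by genotype group; each point is a library, filled with at least 20 cells and open with 5 to 19, and the bar is the mean of the filled points. Groups overlap in most panels; among filled points p21Het (120.8 to 150.7 CPM) lies above p21mTert (50.2 to 103.3 CPM) for Pdgfrb and p21mTertCD (301.8 and 325.7 CPM) above p21mTert (180.9 to 224.7 CPM) for Fgfr1, although open p21mTert points reach 145.3 CPM for Pdgfrb and 399.6 CPM for Fgfr1. For Pdgfra both p21mTertCD points lie above p21Het and inside the p21mTert range. How often groups separate in this way over all genes was not counted.

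Pdgfra, the receptor for Pdgfa, was a fibroblast transcript. Alveolar fibroblasts held 1420 CPM in WT_1, 1314, 1424 and 1226 CPM in p21Het, 1052, 1290, 1215, 1154 and 1834 CPM in p21mTert, and 1670 and 1663 CPM in p21mTertCD. p21mTert spanned the whole range, holding both the lowest and the highest library. The mean was 1388 CPM ± 244 (n = 11), against 511 CPM ± 78.2 (n = 9) in adventitial fibroblasts and 11.3 CPM ± 19.3 (n = 4) in smooth muscle. Alveolar fibroblasts held 74.1% and adventitial fibroblasts 10.2% of all Pdgfra UMIs. After thinning, 86.7% of alveolar and 63.7% of adventitial fibroblasts had a Pdgfra UMI (97.6% and 90.0% before, the latter from a median depth of 9399 UMIs), against 0.120% of B cells (0.285% before). In gCap cells 9 UMIs were counted in all, and the level in alveolar fibroblasts was 1520 times that in gCap cells, with an exact 95% interval of 800 to 3325 that covers counting error only.

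Fgfr4, an FGF receptor known mainly from liver and muscle, was nearly limited to alveolar fibroblasts. It stood there at 48.8 CPM in WT_1, 119.7, 64.0 and 33.3 CPM in p21Het, 100.0, 92.3, 58.1, 96.6 and 136.7 CPM in p21mTert, and 51.0 and 96.7 CPM in p21mTertCD, a mean of 81.6 CPM ± 32.6 (n = 11). The spread was wide in each group, and counts were low, from 7 UMIs in p21Het_3 to 162 in p21mTert_4. Of all Fgfr4 UMIs, 88.6% came from this lineage, and the next, AT1 cells, had 1.57 CPM ± 2.74 (n = 6) on 2 UMIs. Over the 9 libraries with both fibroblast lineages, 544 UMIs in alveolar and 3 in adventitial fibroblasts gave a ratio of 64.6 with an exact 95% interval of 21.99 to 314.2 for counting error only.

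Fgfr1, the mesenchymal FGF receptor, was spread over several lineages. Adventitial fibroblasts at 247 CPM ± 53.7 (n = 9), lymphatic endothelium at 221 CPM ± 31.4 (n = 8) and alveolar fibroblasts at 201 CPM ± 41.0 (n = 11) were neighbours, with the first above the second in 5 of 7 libraries and the second above the third in 5 of 8. Dendritic cells at 120 CPM ± 31.2 (n = 11), smooth muscle at 104 CPM ± 9.92 (n = 4) and aCap cells at 68.0 CPM ± 23.3 (n = 10) followed. In gCap cells the level in the libraries that held both capillary lineages was 2.93 CPM ± 2.35 (n = 10). Neighbours among the leading 3 lineages thus overlapped in their spread, whereas the capillary types stood far apart.

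Fgfr2, the receptor for Fgf7 and Fgf10, was mainly epithelial among the ranked lineages. AT2 cells held 346.2 CPM in WT_1, 327.9, 159.8 and 241.6 CPM in p21Het, 285.4, 258.4, 215.0, 309.7 and 263.2 CPM in p21mTert, and 173.4 and 254.1 CPM in p21mTertCD. The lowest values, p21Het_2 and p21mTertCD_1, belonged to 2 different groups. The mean was 258 CPM ± 59.2 (n = 11), and 84.7% of Fgfr2 UMIs came from AT2 cells. AT1 cells had 94.6 CPM ± 24.3 (n = 6), below AT2 in 6 of 6 libraries, smooth muscle 47.2 CPM ± 7.41 (n = 4), ciliated cells 26.4 CPM ± 3.59 (n = 11) and adventitial fibroblasts 24.7 CPM ± 19.5 (n = 9). The 3′ counts do not tell the epithelial from the mesenchymal splice form. After thinning, 31.9% of AT2, 23.3% of AT1 and 0.258% of B cells had an Fgfr2 UMI (75.6%, 49.6% and 0.671% before). The thinned AT1 shares, here and for Pdgfa and Pdgfb, are means over 9 libraries and not the 6 of the AT1 levels. For Fgfr2 these 9 ran from 8.33% to 44.4%.

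Pdgfrb, the receptor for Pdgfb, belonged to mural cells and adventitial fibroblasts. Only 36 cells were gated as pericytes, at most 7 in a library, so their level is a pooled one of 1475 CPM on 242 UMIs, and the planned comparison of pericytes with smooth muscle could not be fitted. These 36 cells held 17.3% of all Pdgfrb UMIs. Among lineages with enough cells, smooth muscle at 119 CPM ± 64.4 (n = 4) and adventitial fibroblasts at 109 CPM ± 40.5 (n = 9) were not ordered, with the first higher in 2 of 4 libraries. Alveolar fibroblasts had 32.1 CPM ± 11.7 (n = 11), lower than adventitial fibroblasts in 9 of 9 libraries. The pooled pericytes also held 353.5 CPM of Pdgfa on 58 UMIs and 176.8 CPM of Hgf on 29 UMIs, and no UMI of Pdgfb, Fgf7, Fgf10 or Fgfr2. Ductal myofibroblasts, 62 cells with no library of 20, held pooled levels of 160.6 CPM for Fgf7 and 113.7 CPM for Fgfr2.

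Read by ligand and receptor, 3 pairs had different leading lineages among those with at least 20 cells in several libraries: Fgf7 and Fgf10 in fibroblasts with Fgfr2 in AT2 and AT1 cells, Pdgfa in AT1 and ciliated cells with Pdgfra in fibroblasts, and Pdgfb in capillaries with Pdgfrb in smooth muscle and adventitial fibroblasts. The 36 pericytes, pooled because no library had 20, had the 1475 CPM of Pdgfrb given above. The 62 ductal myofibroblasts held both Fgf7 and Fgfr2. Across 27 lineages the Pearson r of log2(CPM + 1) was 0.42 between Fgf7 and Fgfr2, 0.18 between Fgf10 and Fgfr2, 0.16 between Pdgfa and Pdgfra and -0.28 between Pdgfb and Pdgfrb. Genes that shared a lineage were closer, at 0.94 for Fgf7 and Pdgfra, 0.82 for Fgf10 and Pdgfra, and 0.77 for Fgf7 and Fgf10. These correlations describe the order of lineages, which share libraries and differ in depth, and carry no test. Likeness was searched among 13829 genes with at least 10 CPM in some lineage, with all lineage markers left out. Among these Ism1 was most like Fgf7 (r = 0.96) and also most like Pdgfra (0.94), followed in both by Foxf2 at 0.94. Mmp3, a matrix metalloprotease, led for Fgf10 (0.94), Slc7a10 for Fgfr4 (0.94), Adamts12 for Pdgfrb (0.97) and Clip4 for Fgfr2 (0.88). For the ligands with wider patterns the likeness was lower, with Rab13 for Pdgfa at 0.87, Arhgap31 for Pdgfb at 0.77 and Slc41a3 for Hgf at 0.76.

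Alveolar and adventitial fibroblasts of the same libraries were compared with edgeR, the library as a block. Of all 6671 genes tested, 34.8% were called at an adjusted p under 0.05, 16.3% higher and 18.5% lower in alveolar fibroblasts. Of the 10 signalling genes 9 were tested and 7 called, 4 higher and 3 lower. Higher were Fgfr4 (log2 fold change 5.51, SE 0.39, adjusted p = 4.47e-11), Pdgfra (1.35, SE 0.12, adjusted p = 2.20e-09), Fgf7 (0.86, SE 0.14, adjusted p = 1.94e-05) and Fgf10 (0.54, SE 0.19, adjusted p = 0.0287). Lower were Pdgfrb at -1.91 (SE 0.20, adjusted p = 2.07e-08), Fgfr2 at -1.21 (SE 0.39, adjusted p = 0.0177) and Fgfr1 at -0.41 (SE 0.12, adjusted p = 0.00908). The direction held in 9 of 9 libraries for Fgfr4, Pdgfra, Fgf7 and Pdgfrb, in 8 of 9 for Fgf10 and Fgfr1, and in 7 of 9 for Fgfr2. Hgf at 0.60 (SE 0.28, adjusted p = 0.104) and Pdgfa at -0.21 (SE 0.27, adjusted p = 0.593) did not pass, and Pdgfb was too low to be tested. The Fgf10 call depended on the setting: it was lost in 7 of 19 alternatives, with an adjusted p of up to 0.131. Fgfr2 lost its call in 2 of 16 and Fgfr1 in 1 of 19. The Fgfr4 difference was 6.48 with a stricter gate and 6.38 among cells of at least 5000 UMIs, the latter chosen after seeing the data.

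The 2 capillary types differed in 1 receptor and 2 ligands. The share of all 8395 genes called was 50.1%, 24.1% higher and 26% lower in aCap cells, and of the 4 signalling genes tested 2 were called higher and 1 lower. Fgfr1 was higher in aCap cells (4.33, SE 0.21, adjusted p = 2.69e-22) in 10 of 10 libraries, 21.2 times the gCap level in summed counts, with an exact 95% interval of 14.5 to 32.0 for counting error. Hgf was lower (-5.33, SE 0.41, adjusted p = 2.33e-15) in 10 of 10 libraries, with 2 UMIs in aCap against 270 in gCap cells, a gCap level 54.9 times that of aCap cells with an interval of 15.0 to 455. Pdgfb was slightly higher in aCap cells (0.34, SE 0.08, adjusted p = 0.000701), and Pdgfa at 0.25 (SE 0.20, adjusted p = 0.298) was not called. Among cells of at least 5000 UMIs, a setting chosen after seeing the data, the Fgfr1 difference fell to 3.10 (adjusted p = 3.05e-10), Pdgfb missed the threshold at an adjusted p of 0.0519 and Hgf was no longer tested.

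AT1 and AT2 cells, the 2 epithelial cells of the alveolus, differed in both PDGF ligands and in Fgfr2. Of all 10825 genes 48.8% were called, 18.9% higher and 29.8% lower in AT1 cells, and of the 4 signalling genes tested 2 were higher and 1 lower. Pdgfb was higher in AT1 cells (4.98, SE 0.21, adjusted p = 5.91e-23) and so was Pdgfa (3.01, SE 0.14, adjusted p = 1.50e-21), each in 6 of 6 libraries. Fgfr2 was lower (-1.98, SE 0.17, adjusted p = 3.10e-13) in 6 of 6, and Fgfr1 at 0.03 (SE 0.56, adjusted p = 0.972) was not called. Scaling by library totals in place of TMM, the trimmed mean of M-values, moved the median of all genes by 0.62 on the log2 scale and the share of called genes that were higher from 38.8% to 70.8%. Under it the 3 calls kept their directions, at 5.60 for Pdgfb, 3.62 for Pdgfa and -1.36 for Fgfr2. The summed AT2 markers in gated AT1 cells were 28188 CPM in p21Het_1, 49644 in p21mTertCD_1 and 31979 in p21mTertCD_2, and 336 to 3797 CPM in the other 8 libraries. Of these 3 libraries p21mTertCD_2 alone entered the comparison, and without it all 3 calls held.

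**Figure D3:**
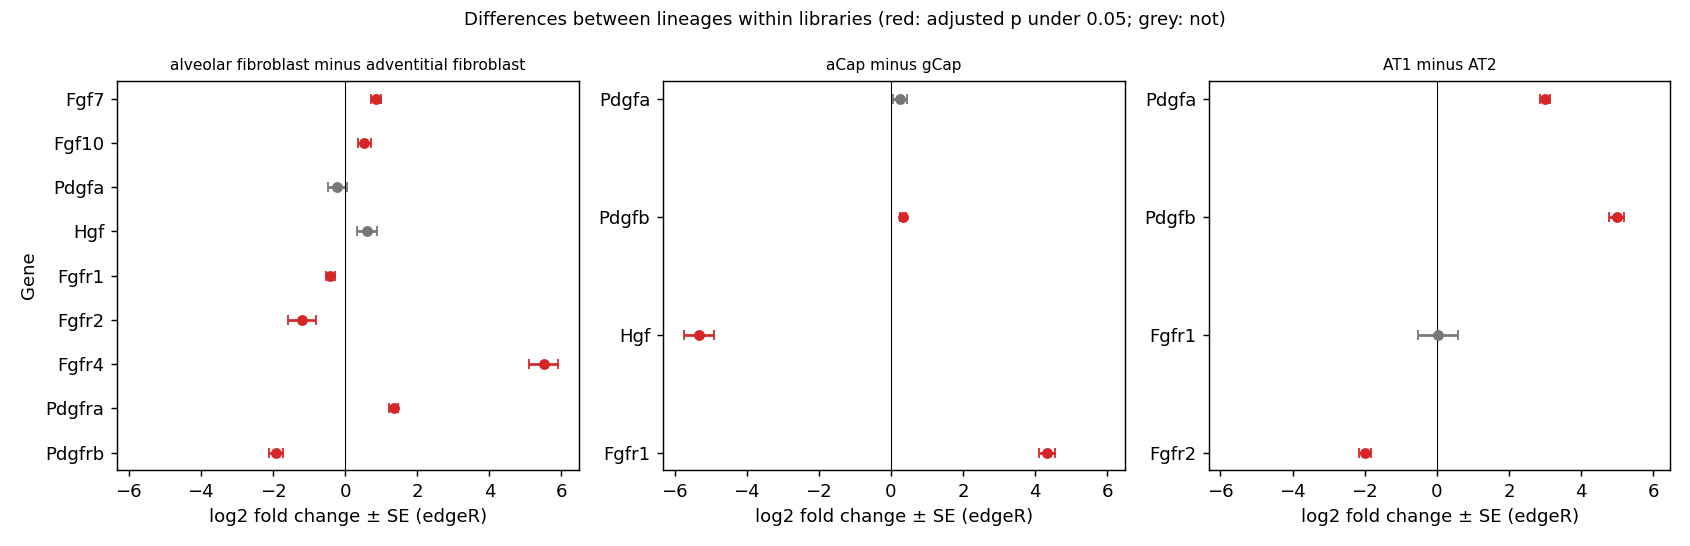
Differences between lineages of the same libraries for each tested gene; the x axis is edgeR's log2 fold change with its SE as the bar, red points passed an adjusted p under 0.05 and grey points did not. Fgfr4 lies far to the alveolar fibroblast side, Fgfr1 to the aCap side with Hgf opposite, and both PDGF ligands to the AT1 side.

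A list of 33 further genes of these pathways was read in the same fits: other ligands, other receptors, feedback inhibitors, target transcription factors, adaptors and co-factors, and the proteases and inhibitors that process growth factors. Between alveolar and adventitial fibroblasts 15 were tested, 8 were higher and 3 lower, with a median log2 fold change of 0.35 beside 0.02 over all genes. Of the 7 feedback inhibitors, which damp signalling downstream of receptor tyrosine kinases, 5 were higher in alveolar fibroblasts and none lower, where 16.3% of all genes were higher and 18.5% lower. Dusp6, an ERK phosphatase, was higher by 2.08 (SE 0.24, adjusted p = 1.04e-07), Spry1 by 0.53 (SE 0.16, adjusted p = 0.0128) and Spred1 by 0.35 (SE 0.14, adjusted p = 0.0489), while Spry2 stood at -0.09 (SE 0.23, adjusted p = 0.802). Etv1, an ETS transcription factor induced by FGF signalling, was higher by 3.21 (SE 0.31, adjusted p = 1.03e-08), and Fgfr3 by 0.81 (SE 0.19, adjusted p = 0.00136). Pdgfd, a ligand of Pdgfrb, was lower at -2.34 (SE 0.38, adjusted p = 1.89e-05), as were Pdgfrl at -1.94 (SE 0.34, adjusted p = 5.07e-05) and Plat, tissue plasminogen activator, at -1.71 (SE 0.16, adjusted p = 5.48e-09).

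In the capillaries 14 of the 33 were tested, 7 were higher and 6 lower in aCap cells, with a median of 0.24 beside -0.02 over all genes. Feedback inhibitors were called in both directions, 2 higher and 5 lower, where 24.1% of all genes were higher and 26% lower. Dusp6 was lower at -1.64 (SE 0.11, adjusted p = 3.73e-17) and Spry1 at -1.26 (SE 0.21, adjusted p = 2.11e-06), whereas Spred1 was higher at 0.63 (SE 0.14, adjusted p = 0.000158). Fgfr3, like Fgfr1, was higher in aCap cells, at 486 CPM ± 59.0 against 111 CPM ± 24.6 (n = 10), as was the ligand Fgf1 at 165 CPM ± 39.7 against 32.4 CPM ± 8.77, both called. Pdgfd was higher as well, at 0.92 (SE 0.12, adjusted p = 1.38e-08).

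In the epithelium 21 were tested, 5 were higher and 11 lower in AT1 cells, with a median of -0.75 beside -0.14 over all genes. Scaled by library totals, 8 were higher and 7 lower, with a median of -0.14 beside 0.48. Under that scaling 5985 of all 10825 genes were called, 70.8% of them higher in AT1 cells. Met, the Hgf receptor, was 124 CPM ± 16.1 in AT2 and 4.69 CPM ± 5.33 in AT1 cells (n = 6), lower in AT1 by -5.35 (log2, SE 0.32, adjusted p = 7.99e-18). Etv5, an ETS factor that maintains AT2 cells, was 344 CPM ± 73.9 in AT2 cells of the same 6 libraries. In AT1 cells Etv5 was at 65.97 CPM in p21mTertCD_2, the library whose AT1 cells held 31979 CPM of AT2 markers, and at 0 in the other 5. The part of those AT2 transcripts in its level was not tested. All 5 feedback inhibitors tested were lower in AT1 cells, where 29.8% of all genes were lower, among them Dusp6 at -1.72 (SE 0.26, adjusted p = 3.26e-07). Scaled by library totals, where 70.8% of the 5985 called genes were higher, 3 of the 5 were called lower. These were Dusp6 at -1.10, Spry2 at -0.66 and Spred2 at -2.21, while Spry1 at -0.27 (adjusted p = 0.131) and Spred1 at -0.14 (adjusted p = 0.514) were not called. In AT1 cells Flrt3, a membrane partner of FGF receptors, was higher at 402 CPM ± 47.0 against 6.48 CPM ± 1.89, and so was Fgf1 at 314 CPM ± 49.8 against 53.7 CPM ± 14.0. Fgf18 was 48.7 CPM ± 18.9 in AT1 and 0.207 CPM ± 0.218 in AT2 cells, and Fgfrl1, a receptor without a kinase, 55.7 CPM ± 18.4 against 6.68 CPM ± 1.28, both called higher. Read across lineages, Fgf2 was highest in alveolar fibroblasts at 95.7 CPM ± 19.8 (n = 11) and Pdgfc in alveolar macrophages at 32.1 CPM ± 6.25 (n = 11). Spint2, an inhibitor of the protease that activates Hgf, was highest in ciliated cells at 573 CPM ± 28.0 (n = 11).

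Between genotypes, the 10 genes gave 46 tests per comparison, in whole lung and 8 lineages. For p21mTert against p21Het 1 of the 46 was called, where 0.0592% of all 74341 tests of the same 9 fits were called. For p21mTert against p21mTertCD none was called, beside 0.133% of all tests, and for p21mTertCD against p21Het none, beside 0.0605%. Of the 44, 99 and 45 background calls, 27, 67 and 23 came from the AT1 fit, where p21Het and p21mTertCD had 1 library each. At an unadjusted p under 0.05 there were 4, 7 and 2 tests in these comparisons, in both directions in each. Over all genes, 3.48% to 7.53%, 3.61% to 16.0% and 1.68% to 7.06% of tests in a fit had such a p. DESeq2 called 0 of the 46 in all 3 comparisons. The 33 pathway genes gave 131 tests per comparison, of which edgeR called 0, and 8, 15 and 7 had an unadjusted p under 0.05. The comparisons share libraries, so their counts are not independent. On simulated alveolar fibroblast data with 7936 genes, the p21mTert against p21Het test recovered 15% of 2-fold and 92.9% of 4-fold changes. Smaller differences could thus have gone uncalled. The simulation gave every gene the same dispersion and changed only genes of higher level. Its shares are for that fit alone and not for fits with fewer libraries, such as AT1.

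Apart from Pdgfb in AT1 cells no test was called. For Pdgfra in alveolar fibroblasts p21mTert differed from p21Het by -0.01 (log2, SE 0.20) and from p21mTertCD by -0.39 (SE 0.22). Fgf7 there differed by 0.12 (SE 0.21) and -0.23 (SE 0.22), Fgf10 by 0.01 (SE 0.24) and 0.25 (SE 0.25), and Fgfr4 by 0.34 (SE 0.28) and 0.27 (SE 0.29). Further differences of p21mTert from p21mTertCD in these fibroblasts were -0.89 for Pdgfrb (SE 0.30, adjusted p = 0.835) and -0.69 for Pdgfa (SE 0.29, adjusted p = 0.999). None of these passed. Pdgfa in AT1 cells differed by 0.17 (SE 0.29) from p21Het and by 0.58 (SE 0.31) from p21mTertCD, each with 1 library. That p21mTertCD library, p21mTertCD_2, held 31979 CPM of AT2 markers in its AT1 cells against 625 to 3797 CPM in the p21mTert libraries, and AT2 cells had less Pdgfa than AT1 cells. The part of these markers in the difference was not tested. In AT2 cells Fgfr2 differed by 0.16 (SE 0.17) and 0.28 (SE 0.20), and Pdgfa by 0.27 (SE 0.10, adjusted p = 0.775) and 0.30 (SE 0.12, adjusted p = 0.714). Pdgfa in AT2 cells lay between 52.2 and 60.02 CPM in p21mTert and between 38.3 and 51.2 CPM in p21Het, groups that did not overlap, yet the difference was not called. The share of all genes whose groups do not overlap was not counted, so this separation is a description only. Pdgfb differed by 0.20 (SE 0.18) and 0.02 (SE 0.21) in gCap cells and by -0.20 (SE 0.22) and 0.00 (SE 0.24) in aCap cells. In adventitial fibroblasts Fgfr1 differed from p21mTertCD by -0.59 (SE 0.25, adjusted p = 0.999) and Pdgfra by 0.54 (SE 0.22, adjusted p = 0.999), neither of them called.

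The 1 call was Pdgfb in AT1 cells, higher in p21mTert than in p21Het by 2.21 (log2, SE 0.42, adjusted p = 0.00803) in a fit where 0.603% of 4478 genes were called. It rested on 4 p21mTert libraries, at 156.8, 191.1, 257.8 and 187.9 CPM, and on a single p21Het library, p21Het_2, at 39.9 CPM on 10 UMIs from 43 cells. With 1 p21Het and 1 p21mTertCD library in the fit, the spread behind its SE and p came from the p21mTert libraries and from edgeR's pooling over genes. The lone p21Het library was assumed to vary like them, so the call has no replicate check in p21Het. The other p21Het libraries were below the limit of 20 cells, with 176.5 CPM in p21Het_1 and 114.9 CPM in p21Het_3 on 13 cells each, of which the first lay within the range of p21mTert. WT_1 had 99.6 CPM on 10 cells, p21mTert_1 181.3 CPM on 7, p21mTertCD_1 55.4 CPM on 15 and p21mTertCD_2 125.9 CPM on 21 cells. With every library of at least 5 AT1 cells, chosen after seeing the data, the difference was 1.05 (adjusted p = 0.532), and without p21Het_2 no test was possible because no p21Het library remained. The 6 endothelial markers summed to 0 to 37.4 CPM in gated AT1 cells of any library, and to 10851 to 15679 CPM in gCap cells. The gate itself used these markers, counting them toward gCap cells and leaving out AT1 cells that carried more than 1. These sums therefore cannot test the part of endothelial RNA. For several other marker lists p21Het_2 lay outside the range of the 4 p21mTert libraries of the test, and for others inside it. The lists named here are only a part of them. Its gated AT1 cells held 26524 CPM of AT1 markers against 31855 to 36862 CPM, 24292 CPM of erythroid markers against 225 to 19695 CPM, and 527 CPM of alveolar macrophage markers against 39.8 to 245 CPM. Its AT2 markers, at 2504 CPM, lay within their range of 625 to 3797 CPM. The part of these transcripts in the Pdgfb difference was not tested.

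Hgf in adventitial fibroblasts varied widely between libraries. It was 282.2, 56.9 and 151.0 CPM in the p21Het libraries, 23.6, 30.1 and 54.9 CPM in p21mTert_2 to p21mTert_4, 34.5 and 40.4 CPM in p21mTertCD and 5.70 CPM in WT_1, on 1 to 50 UMIs. Among libraries of at least 20 cells all p21Het values lay above every p21mTert and p21mTertCD value, p21Het_2 only just, and WT_1 was the lowest of all. The share of all genes with groups so separated was not counted. The p21mTert libraries with fewer cells held 30.0 CPM (15 cells, p21mTert_1) and 58.1 CPM (14 cells, p21mTert_5), the last within the p21Het range. The difference of p21mTert from p21Het was -1.90 (SE 0.49, adjusted p = 1.000) and was not called. It was called only with no filter on low counts, at -1.88 (adjusted p = 0.000221), as was that of p21mTertCD from p21Het at -1.86 (adjusted p = 0.00207). Markers of basophils and mast cells, the lineage highest for Hgf, summed to 0 to 7.86 CPM in these fibroblasts. The gate itself counted these markers toward basophils and mast cells, so the sums cannot test the part of their RNA. That part was not tested. Pdgfrb in the same cells was lower in p21mTert than in p21Het by -0.82 (SE 0.32, adjusted p = 1.000), not called.

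**Figure D4:**
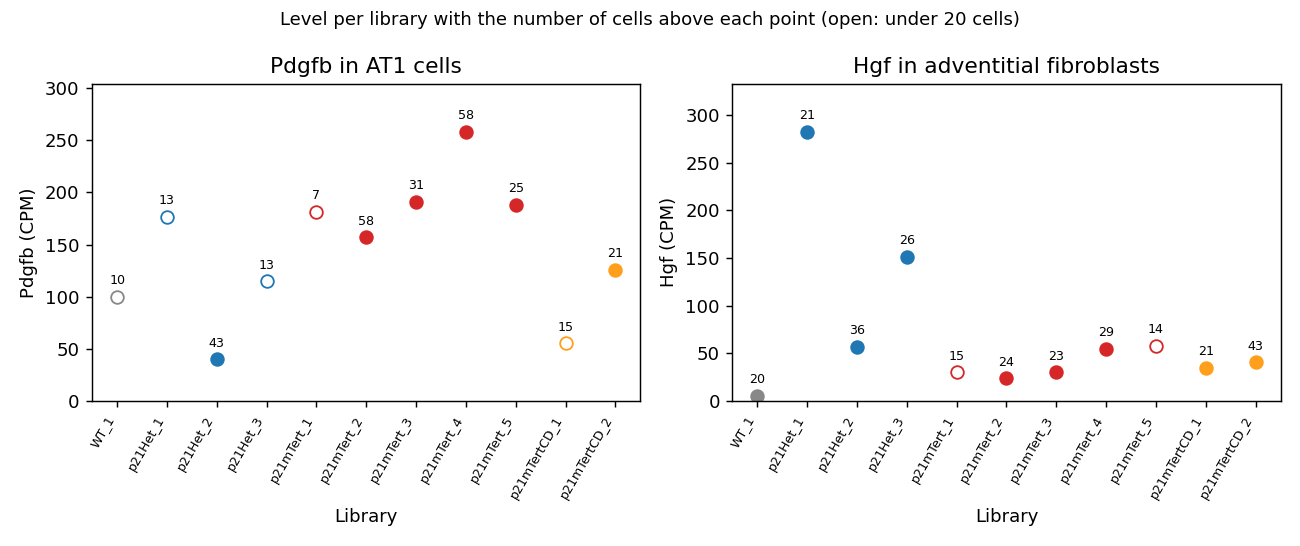
Level per library (CPM, linear axis from 0) of Pdgfb in AT1 cells and Hgf in adventitial fibroblasts, with the number of cells above each point; open points rest on under 20 cells. In the first panel p21Het_2 is the only filled p21Het point, at 39.9 CPM, and in the second the p21Het points reach from 56.9 to 282.2 CPM.

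In whole lung, all kept cells of a library summed, fewer cells of a type and less RNA per cell cannot be told apart. Pdgfra ran from 11.1 CPM in p21mTert_1 to 59.8 CPM in p21mTertCD_2, and the 2 highest libraries, p21mTertCD_2 and p21mTert_4 at 51.3 CPM, were also the 2 with the largest share of alveolar fibroblasts, 2.58% and 3.35% against 0.432% to 1.56% elsewhere. Of 30 two-sided exact permutation tests on log2(CPM + 1), 2 had a p under 0.05, both for p21mTert against p21mTertCD. In edgeR's whole-lung fit of that comparison, a different test, 16.0% of all 17298 genes had an unadjusted p under 0.05. The share of all genes under the permutation test was not counted, so 2 of 10 is not read as a result. Fgfr2 was 33.0, 42.1, 37.8, 53.8 and 37.3 CPM in p21mTert against 15.4 and 20.8 CPM in p21mTertCD, a difference of 1.125 on the log2 scale (exact permutation p = 0.0476). Pdgfa was 20.7, 26.9, 26.2, 35.4 and 27.2 CPM against 16.9 and 17.2 CPM, a difference of 0.63 (exact permutation p = 0.0476). For neither gene did these groups overlap, and 0.0476 is the smallest p that 5 against 2 libraries can give. Comparing 5 with 3 libraries allows 0.0179 at the least and 2 with 3 allows 0.1, so the last cannot pass. The later deposit alone holds too few libraries for any of these tests to reach 0.05. In edgeR's whole-lung fit 0 of the 10 genes was called in any comparison, with adjusted p of 0.237 for Fgfr2 and 0.282 for Pdgfa. AT2 cells, which held most Fgfr2 UMIs, made up 5.05% to 8.39% of p21mTert and 3.83% and 4.77% of p21mTertCD cells, and the part of that share in the difference was not tested. The p21Het libraries spread from above the p21mTert range to the lower p21mTertCD value, with Fgfr2 at 59.6, 27.6 and 15.4 CPM.

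**Figure D5:**
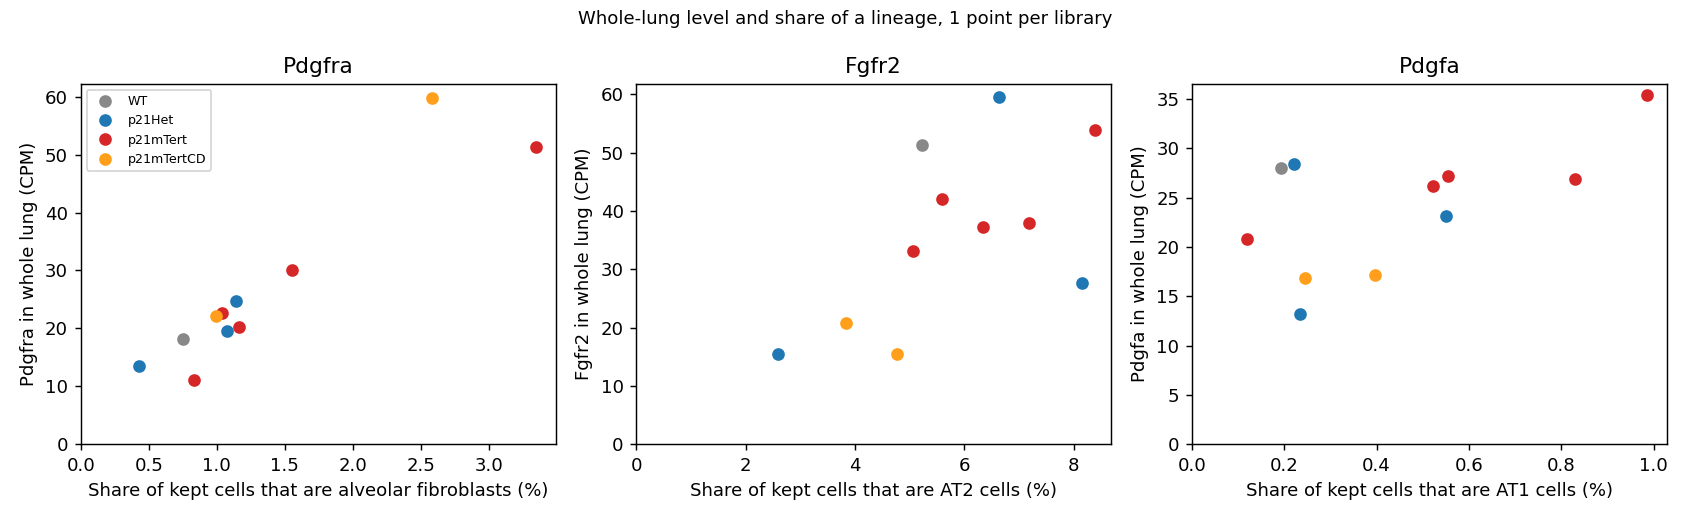
Whole-lung level (CPM) of Pdgfra, Fgfr2 and Pdgfa against the share of kept cells gated as alveolar fibroblasts, AT2 or AT1 cells; each point is a library coloured by genotype, and axes start at 0. For Pdgfra, p21mTertCD_2 and p21mTert_4 lie apart at the upper right, and for Fgfr2 both p21mTertCD libraries lie below all p21mTert libraries.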

How the data were processed

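The deposited matrices hold raw UMI counts per gene and barcode, which the authors made with Cell Ranger on mm10, per the submitters' processing notes (versions given there and in the file headers differ). Counts carried none of the cell filters that the labels' protocols describe, so 1000 to 30000 UMIs and at most 14% mitochondrial UMIs were required here. Doublets were the highest Scrublet scores (scanpy 1.11.5), 0.8% per 1000 barcodes. A cell took a lineage when it carried at least 3 of its markers above free RNA and led the next lineage's score by 0.5. The shortest marker lists needed fewer. Cells with more than 1 general marker of another compartment were left out, with more allowed for immune ones (225 markers). UMIs were summed per library and lineage with at least 20 cells, and fitted with edgeR 4.0.16 (R 4.3.3, filterByExpr, TMM, quasi-likelihood test), Benjamini-Hochberg over all genes. Genotype fits used p21Het, p21mTert and p21mTertCD, lineage fits all libraries with library as a block. Permutation tests went through every split of the libraries, with numpy 2.4.6. Tests were checked on simulated data. DESeq2 1.42.0, RLE factors, no filter, other gates, deposits and left-out libraries were alternatives. Cells of at least 5000 UMIs, libraries of at least 5 cells and library totals in place of TMM were added after seeing the data.

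Members and lists were chosen with earlier results of these data known. Named beside the 10 genes were up to 4 pathway genes per role with the highest level in any lineage, any pathway gene called between genotypes, and the 3 genes most like each member, of which the first or the first and second are printed; that for Fgfr1 is not reported here. Promoter windows are from RefSeq (GRCm38.p6). Pericytes against smooth muscle was planned and could not be fitted. Intervals cover counting error only.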

Additional observations from a re-analysis of the deposited data

How the results depend on the processing

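For p21mTert against p21Het, 1 test was called as reported, 2 with no filter on low counts, and 0 with DESeq2 and with libraries of at least 5 cells. With a term for the deposit the count was also 0, but the called test, Pdgfb in AT1 cells, could not be run there because every library in that fit is of the later deposit. Leaving out each library gave 0 to 1, with 0 without p21Het_2. For p21mTertCD against p21Het the count was 0, and 1 with no filter. With the replicate number as a block, over libraries whose labels share a number, 0 of 37 tests were called for p21mTert against p21Het, a set without Pdgfb in AT1 cells, which could not be fitted so. Correlations of deviations from group means cannot tell whether equal numbers pair libraries. Same-numbered libraries gave 0.02 for p21mTert_2 with p21Het_2, -0.54 for p21mTert_3 with p21Het_3, 0.19 for p21mTert_2 with p21mTertCD_2 and -0.30 for p21Het_2 with p21mTertCD_2. Unlike-numbered ones ran from -0.40 (p21mTert_5 with p21Het_2) to 0.71 (p21mTert_3 with p21Het_2). The 2 p21mTertCD libraries have mirrored deviations, and libraries of the earlier deposit were not correlated.

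Of the lineage comparisons, aCap against gCap had 3 calls and only 1 among cells of at least 5000 UMIs, where 3 genes were tested. Alveolar against adventitial fibroblasts had 5 to 8 over all settings run. AT1 against AT2 had 3 in every one. Between fibroblasts Fgf10 lost its call in 7 of 19 settings, Fgfr1 in 1 of 19 and Fgfr2 in 2 of the 16 in which it was tested, and Hgf gained one in 5 of 19. The uncalled values that changed sign were Pdgfa between fibroblasts (-0.37 to 0.0073 over left-out libraries, the latter without p21Het_2) and between capillaries (-0.27 among cells of at least 5000 UMIs), and Fgfr1 in AT1 against AT2 (-0.012 with no filter, -0.24 to 0.36 over left-out libraries, with -0.24 without p21mTert_4, -0.03 without p21Het_2, -0.06 without p21mTertCD_2). The 2 whole-lung tests with p under 0.05 became 1 over all deposited barcodes. In the later deposit alone the count was 0 because its numbers of libraries allow no p under 0.05. Leaving out a library gave 0 to 3, with 0 whenever a p21mTert or p21mTertCD library was left out. Both tests compare p21mTert with p21mTertCD, where the smallest possible p then exceeds 0.05, and in these settings no test of the other comparisons had a p under 0.05. With a stricter gate the highest Pdgfrb lineage was adventitial fibroblasts at 109 CPM. Clusters in place of the gate gave no adventitial fibroblasts, and no alternative was run for pericytes against smooth muscle. Apart from the tests named, the cause was not tested. Hgf in adventitial fibroblasts rests on 1 to 50 UMIs per library, and the part of depth in its spread was not tested.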

Other observations

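Spry2, a feedback inhibitor of receptor tyrosine kinases, was highest in basophils and mast cells at 268 CPM ± 98.7 (SD, n = 5 libraries) and in natural killer cells at 224 CPM ± 85.6 (n = 11), followed by AT2 cells at 91.1 CPM ± 24.8 (n = 11). Spred1, another such inhibitor, led in interstitial macrophages at 136 CPM ± 20.95 (n = 11). Plat, tissue plasminogen activator, was highest in arterial cells at 839 CPM ± 248.8 (n = 9), and Dusp6 in gCap cells at 254 CPM ± 43.6 (n = 11). Lymphatic endothelium, beside its Fgfr1, held Dusp6 at 230 CPM ± 50.6, Spry1 at 167 CPM ± 63.0 and Spred1 at 116 CPM ± 28.2 (n = 8 each). No test was run on these levels.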
